A study of Mus musculus with 10 samples.

Results

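The genes described here are targets of p53, a transcription factor activated by DNA damage and other stress. A list of 10 well-known targets was taken (Cdkn1a, Mdm2, Ccng1, Sesn1, Plk2, Eda2r, Rrm2b, Trp53inp1, Phlda3 and Btg2), and a gene was kept if it had a probe set carrying its symbol and no other. This left 9 of the 19938 named genes of the array. The probe set of Cdkn1a also carries a second symbol, so no value is given for it, and the transcript of p53 itself was not analysed here. Each of the 9 genes had 1 such probe set.

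RNA came from cultured mouse neurons of a 129Sv-C57Bl/6 background that had reached terminal differentiation, and was measured on Affymetrix whole-transcript arrays, 1 array per sample. One group received SP600125, a small molecule that inhibits the stress kinases JNK (JUN N-terminal kinases), at 25 µM in 3 applications 2 hours apart (5 samples), and the other received the solvent DMSO in the same way (5 samples). The series' design text gives batch as batches of the drug SP600125: the a and b samples of both groups carry batch 1, and the c, d and e samples batch 2. The labels call a to e biological replicates but do not say that they were separate cultures, so the p-values reflect sample-to-sample spread that can be technical. No knockout or second JNK inhibitor is part of the series, and SP600125 is known to act on other kinases too.

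In unstressed cells p53 is held low by MDM2, a ubiquitin ligase that is itself a p53 target, so that p53 limits its own level. When p53 is stabilised it binds sites near its targets, each made of a pair of 10-base motifs, and raises genes for cell cycle arrest, DNA repair, metabolism and cell death. JNK can phosphorylate p53, and in neurons both JNK and p53 are known for their part in death after injury.

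The p53 motif was searched in RefSeq promoter windows (mouse build GRCm38.p6), which run from 250 bases before to 50 bases after an annotated start. Windows were found for 8 of the 10 listed genes, 10 windows in all. The motif is the standard 10-base p53 consensus, which reads alike on both strands. A perfect copy stood in 4 of the 10 windows, those of Ccng1, Mdm2, Cdkn1a and one start of Sesn1, against 8.36% of all 32851 windows. The 250 bases before the start are shown for the measured genes with a copy, 5′ to 3′ on the gene's strand, with the motif copies in capitals.

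Ccng1: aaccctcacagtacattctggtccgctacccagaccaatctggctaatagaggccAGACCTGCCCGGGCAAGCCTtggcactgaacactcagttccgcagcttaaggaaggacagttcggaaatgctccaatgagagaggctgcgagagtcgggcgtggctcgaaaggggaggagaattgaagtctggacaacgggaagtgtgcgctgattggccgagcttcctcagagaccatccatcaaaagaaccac

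Sesn1: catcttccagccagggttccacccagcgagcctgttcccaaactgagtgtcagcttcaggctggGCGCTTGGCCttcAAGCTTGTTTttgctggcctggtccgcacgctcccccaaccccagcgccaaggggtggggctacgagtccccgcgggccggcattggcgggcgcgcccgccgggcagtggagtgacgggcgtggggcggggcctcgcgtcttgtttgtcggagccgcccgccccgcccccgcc

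Mdm2: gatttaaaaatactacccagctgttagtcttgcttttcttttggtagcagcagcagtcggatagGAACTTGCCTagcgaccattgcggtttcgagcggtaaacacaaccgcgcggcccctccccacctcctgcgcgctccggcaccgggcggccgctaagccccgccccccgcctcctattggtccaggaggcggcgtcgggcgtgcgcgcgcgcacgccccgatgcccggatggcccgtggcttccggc

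Cdkn1a, stretch only: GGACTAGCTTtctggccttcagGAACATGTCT

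These stretches lie at chr11:40755287-40755536 on the minus strand (Ccng1), chr10:41887189-41887438 on the plus strand (Sesn1), chr10:117710759-117711008 on the minus strand (Mdm2) and chr17:29090906-29090937 on the plus strand (Cdkn1a). In Ccng1 a pair of motifs lies back to back with no spacer and 1 letter outside the consensus over both. In the Sesn1 window the copies are 3 bases apart with 2 letters outside the consensus, all of them in the first copy. In Mdm2 a single copy stands alone in the window. In Cdkn1a both copies are perfect and 12 bases apart, in the window of the upstream one of its annotated starts. A pair with a spacer of up to 13 bases, the C and G of each core in place and at most 1 other letter off was found in 0.627% of all windows, and with at most 2 letters off in 4.09%. The windows of Eda2r, Phlda3, Btg2 and Plk2 held no perfect copy, which says nothing about sites outside them. Those of Btg2 and Plk2 each held TGACGTCA, the cAMP response element, which reads the same on both strands and stood in 1.79% of all windows. TGANTCA, the AP-1 motif bound by JUN dimers, likewise symmetric, was in none of the 10 windows and in 7.81% of all. These matches are a description of letters and not evidence of binding.

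The target genes did not move in one direction after SP600125. Eda2r, Ccng1 and Trp53inp1 rose, Rrm2b, Sesn1 and Phlda3 fell, and Mdm2, Plk2 and Btg2 did not pass the test. Changes were small: the largest rise was 1.25-fold (Eda2r), and the largest fall left Rrm2b at 0.768 of its DMSO level on the fold scale. The test was limma on the deposited log2 values with drug batch as a term, adjusted by the Benjamini-Hochberg method over all 19938 genes, with a threshold of 0.05. All changes below are log2 differences, SP600125 minus DMSO, with the moderated SE and 5 samples per group. Of all genes tested, 46.9% passed, 17.0% upward and 29.9% downward, so 3 rises (33.3%) and 3 falls (33.3%) among 9 genes stand beside a high background. The median change of the 9 genes was −0.09, against −0.03 for all genes.

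Signal level moved with the treatment across the array, and that bears on how each value reads. The mean log2 level of each of the 9 genes lay between 6 and 11. Among all 9744 genes in that range the median change was −0.19, with 4.45% rising and 54.0% falling. The range was chosen after the values were seen, and the part of this trend in the single changes was not tested. All SP600125 arrays lay above all DMSO arrays for 2 of the 9 genes, against 6.65% of all genes, and below them for 3, against 16.4%. Together that is 5 of 9, against 23.1% of all genes.

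**Figure D1:**
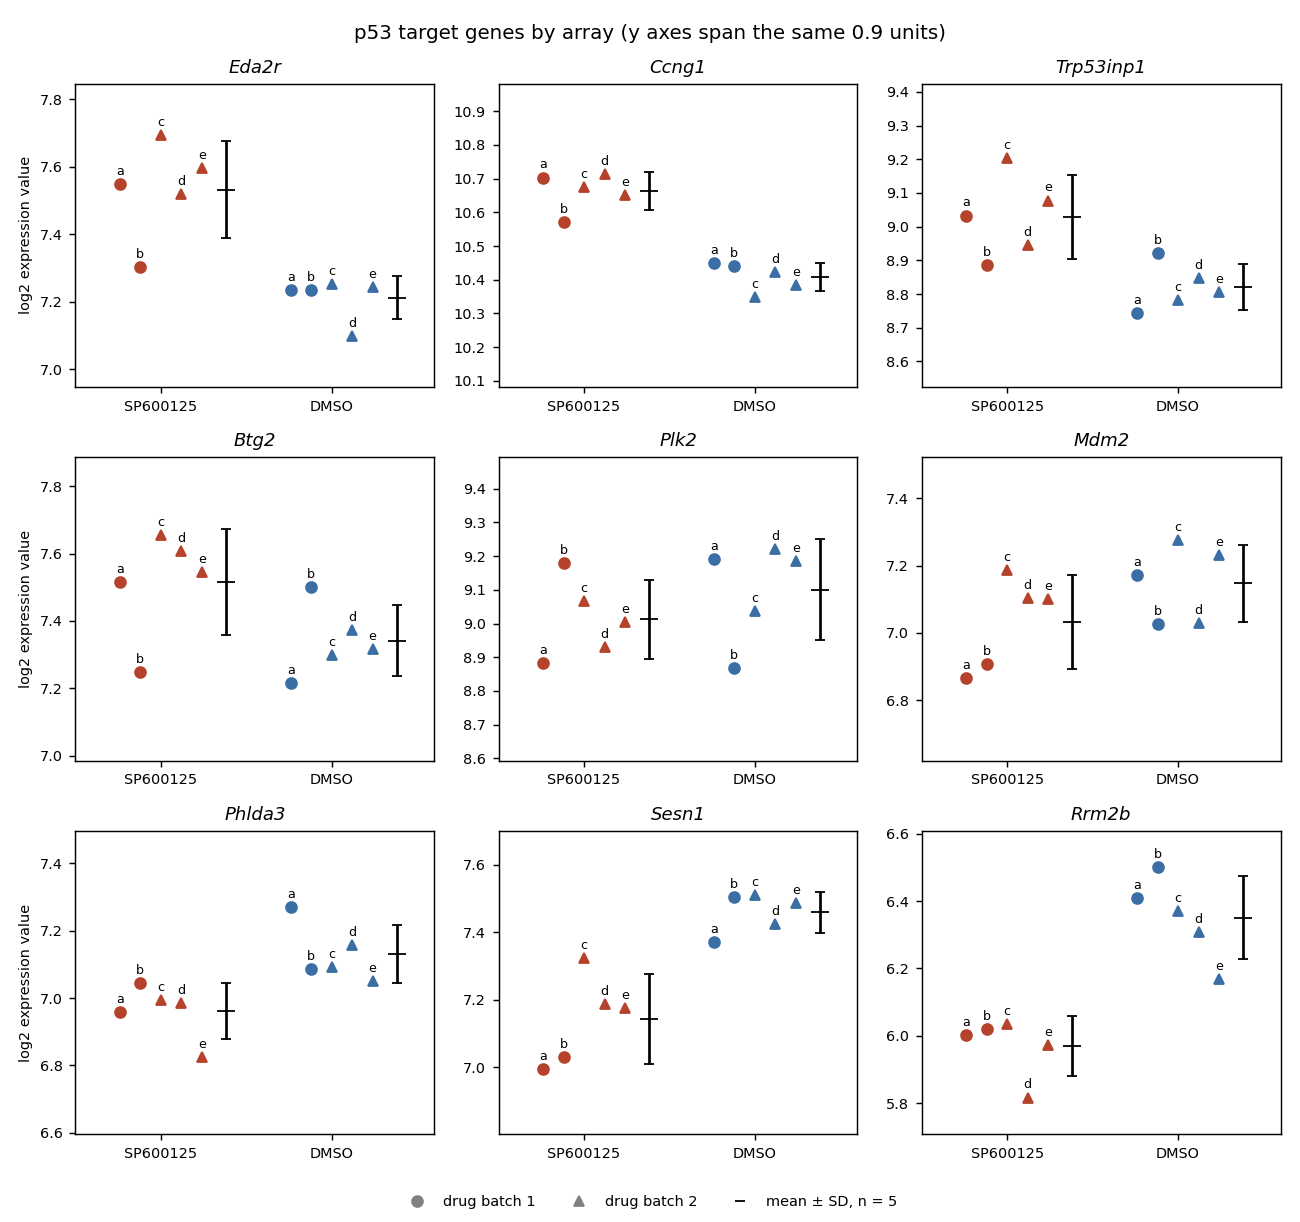
Log2 expression value (y axis, the same span of 0.9 units in each panel) of the 9 p53 target genes on each SP600125 array (red, left) and DMSO array (blue, right), ordered from the highest to the lowest change. Letters name the samples, circles are drug batch 1, triangles are drug batch 2, and black bars are the mean ± SD of 5 samples. Eda2r and Ccng1 are wholly higher and Phlda3, Sesn1 and Rrm2b wholly lower on the SP600125 arrays, and SP600125 sample b is the lowest SP600125 array in the first 4 panels.

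Among regulators of p53, Mdm2 is the one in the list. Its log2 values were 6.87, 6.91, 7.19, 7.10 and 7.10 in SP600125 samples a to e, against 7.17, 7.03, 7.28, 7.03 and 7.23 in DMSO samples a to e. Both batch 1 arrays with SP600125 lay under every DMSO array, while those of batch 2 lay within the DMSO range. The change was −0.11 (SE 0.07, limma adjusted p = 0.174), with a 95% interval from −0.26 to 0.03. Its sign was not stable to the scaling of the arrays: cyclic loess gave 0.04 (limma adjusted p = 0.730), and centring each array on its median gave −0.22 (limma adjusted p = 0.0264).

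Of the targets that restrain the cell cycle, Ccng1 rose and Btg2 did not pass. Ccng1 encodes cyclin G1, a partner of the phosphatase PP2A that feeds back on MDM2. Its values were 10.70, 10.57, 10.67, 10.71 and 10.65 in SP600125 samples a to e, against 10.45, 10.44, 10.35, 10.42 and 10.38 in DMSO samples a to e. Every SP600125 array was above every DMSO array, and the gap between the groups was larger than the SD of either, 0.06 for SP600125 and 0.04 for DMSO. The rise was 0.25 (SE 0.06, 1.19-fold, limma adjusted p = 0.00311), and 0.15 after median centring (limma adjusted p = 0.0481). Among the measured genes with a promoter window, Ccng1 held the pair of motifs closest to the consensus. Sesn1, with the next closest pair, fell, and Eda2r, with the largest rise, had a best pair 6 letters off. Rrm2b and Trp53inp1 had no window. A link between motifs and changes was not tested.

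Btg2 encodes an antiproliferative protein that recruits the CCR4-NOT deadenylase to messenger RNAs. It had 7.52, 7.25, 7.66, 7.61 and 7.55 in SP600125 samples a to e, against 7.22, 7.50, 7.30, 7.37 and 7.32 in DMSO samples a to e. The b samples run against the others: SP600125 b was the lowest of its group and DMSO b the highest of its group. Over all samples the change was 0.17 (SE 0.08), which did not pass (limma adjusted p = 0.0800). It passed without SP600125 sample b (0.24, limma adjusted p = 0.0131), without DMSO sample b (0.24, limma adjusted p = 0.0136) and without both (0.28, limma adjusted p = 0.00240), and this last setting was chosen after the data were seen. It also passed after quantile normalization (0.29, limma adjusted p = 0.0193) and cyclic loess (0.35, limma adjusted p = 0.0119).

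The b samples also stood apart in neuronal markers. The mean log2 level of 14 pan-neuronal markers was 9.19 on SP600125 b, while the other SP600125 arrays had between 8.61 and 8.74. On DMSO b it was 8.98, while the other DMSO arrays had between 9.31 and 9.34. Of these 14 markers 13 fell, where 29.9% of all genes fell. At the mean levels of most of these markers the share was higher: 60.6% of all genes fell from 7 to 8, 66.3% from 8 to 9 and 64.4% from 9 to 10. In a culture measured in bulk, fewer neurons and less RNA per neuron cannot be told apart. The part of the level trend in the marker falls was not tested, nor was the part of the marker differences in the p53 targets.

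Plk2, a polo-like kinase that in neurons acts on synapse strength, followed the b samples the other way. Its values were 8.88, 9.18, 9.07, 8.93 and 9.00 in SP600125 samples a to e, against 9.19, 8.87, 9.04, 9.22 and 9.19 in DMSO samples a to e. SP600125 b was the highest of its group and DMSO b the lowest of its group, and the groups overlapped. The change of −0.09 (SE 0.08) did not pass (limma adjusted p = 0.381), with a 95% interval from −0.26 to 0.09. Without both b samples it was −0.19 (limma adjusted p = 0.0390), and after cyclic loess the sign turned (0.07, limma adjusted p = 0.507).

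Rrm2b and Sesn1, which serve nucleotide supply and stress metabolism, both fell on the deposited values. Rrm2b encodes the p53-inducible small subunit of ribonucleotide reductase, which supplies deoxynucleotides for DNA repair and for mitochondrial DNA in cells that do not divide. It had 6.00, 6.02, 6.04, 5.82 and 5.97 in SP600125 samples a to e, against 6.41, 6.50, 6.37, 6.31 and 6.17 in DMSO samples a to e. All SP600125 arrays were below all DMSO arrays, with means of 5.97 ± 0.09 (SP600125) and 6.35 ± 0.12 (DMSO; SD, n = 5 each). Rrm2b fell by 0.38 on the log2 scale (SE 0.07, limma adjusted p = 0.000667). The change was −0.40 after quantile normalization, −0.36 after cyclic loess and −0.48 after median centring, all past the threshold.

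Sesn1 encodes a sestrin, a stress protein that restrains the growth kinase complex mTORC1. Its values were 6.99, 7.03, 7.32, 7.19 and 7.18 in SP600125 samples a to e, against 7.37, 7.50, 7.51, 7.42 and 7.49 in DMSO samples a to e. The groups did not overlap, and the lowest values were those of SP600125 batch 1. The fall was −0.32 (SE 0.06, 0.803 on the fold scale, limma adjusted p = 0.00155). After quantile normalization the change was −0.21 (limma adjusted p = 0.0268), and after cyclic loess it was −0.15 and no longer passed (limma adjusted p = 0.101).

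The targets tied to cell death and survival split. Eda2r, a receptor of the tumour necrosis factor family that binds ectodysplasin A2, had 7.55, 7.30, 7.70, 7.52 and 7.60 in SP600125 samples a to e, against 7.23, 7.23, 7.25, 7.10 and 7.24 in DMSO samples a to e. Every SP600125 array was above every DMSO array, although SP600125 b exceeded the highest DMSO array only narrowly. The rise was 0.32 (SE 0.07, 1.25-fold, limma adjusted p = 0.00308). Without both b samples it was 0.38 (limma adjusted p = 0.000882), and after cyclic loess 0.49 (limma adjusted p = 0.000995).

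Trp53inp1 encodes a stress-induced protein that promotes cell death and autophagy. It had 9.03, 8.88, 9.20, 8.94 and 9.08 in SP600125 samples a to e, against 8.74, 8.92, 8.78, 8.85 and 8.80 in DMSO samples a to e. Only the b samples crossed, with SP600125 b below DMSO b. The rise of 0.21 (SE 0.07, limma adjusted p = 0.0236) was close to the threshold. It was lost without SP600125 a or c or DMSO a, c or e, each left out alone, with limma adjusted p from 0.0540 to 0.0608. Median centring gave 0.11 (limma adjusted p = 0.215), quantile normalization 0.32 (limma adjusted p = 0.00514) and cyclic loess 0.37 (limma adjusted p = 0.00294).

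Phlda3 encodes a small pleckstrin-homology protein that keeps the survival kinase AKT from the membrane. Its values were 6.96, 7.05, 6.99, 6.99 and 6.82 in SP600125 samples a to e, against 7.27, 7.09, 7.09, 7.16 and 7.05 in DMSO samples a to e. The groups were separated by less than the SD of either one. Among all 3363 genes with a mean level from 7 to 8, where Phlda3 lies, 60.6% fell and the median change was −0.22. The fall of −0.17 (SE 0.06, limma adjusted p = 0.0384) depended on the scaling: it was −0.07 after quantile normalization (limma adjusted p = 0.418) and −0.02 after cyclic loess (limma adjusted p = 0.790). Leaving out SP600125 a or e or DMSO a, c, d or e, one at a time, also ended the call, with changes from −0.18 to −0.14 and limma adjusted p from 0.0523 to 0.103.

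**Figure D2:**
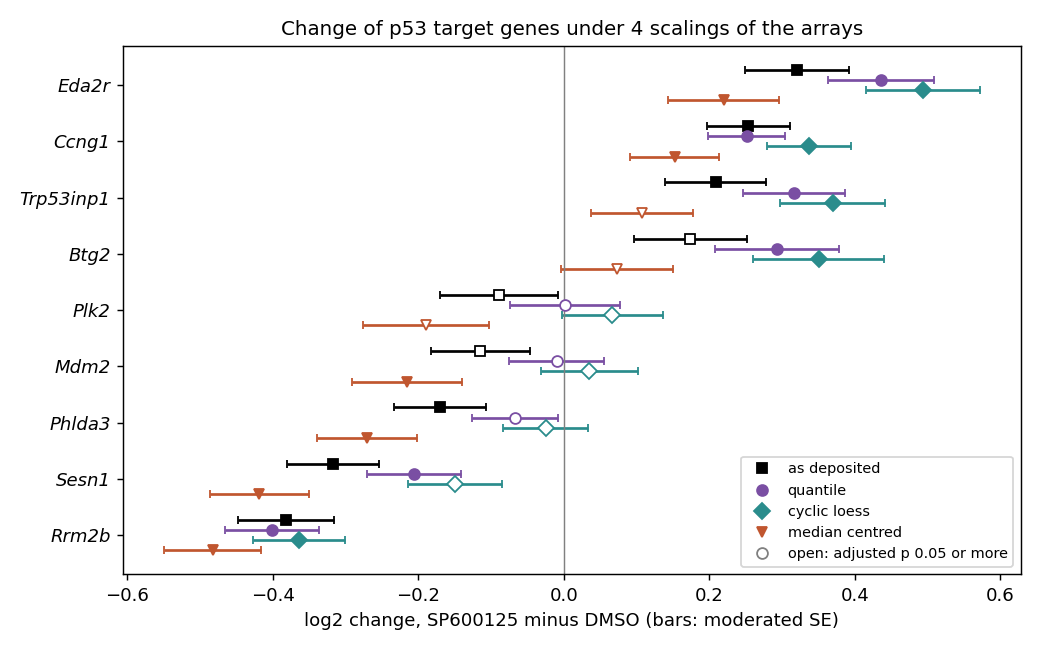
Log2 change, SP600125 minus DMSO (x axis, bars are the moderated SE), of the 9 p53 target genes under 4 scalings of the arrays. Filled symbols passed the limma threshold and open symbols did not. Eda2r, Ccng1 and Rrm2b passed under every scaling shown, while Mdm2 and Plk2 changed sign and Phlda3 passed only as deposited and after median centring.

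Quantile normalization and cyclic loess moved the genes by different amounts. Median centring lowered the median change of all genes to −0.13, against −0.03 as deposited, −0.05 after quantile normalization and −0.02 after cyclic loess. Under each of the 4 scalings Eda2r, Ccng1, Trp53inp1 and Btg2 lay above that median and Rrm2b and Sesn1 below it, whereas Phlda3 was level with it after cyclic loess (−0.02 for both). The number of the 9 genes that rose was 4 after quantile normalization, 4 after cyclic loess and 2 after median centring, and the number that fell was 2, 1 and 4 in the same order. Of all 19938 genes, 1497, 1882 and 1500 rose in that order, and 4494, 3537 and 8602 fell.

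The next question was whether the response of these genes differed between the batches of SP600125. Within drug batch 1, in the fit over all 10 arrays, Sesn1 (−0.43, SE 0.09, limma adjusted p = 0.0201) and Rrm2b (−0.44, SE 0.10, limma adjusted p = 0.0234) were past the threshold. Fitted to the batch 1 arrays by themselves, neither passed (Sesn1, limma adjusted p = 0.111; Rrm2b, limma adjusted p = 0.104). In the fit over all arrays these 2 of 9 genes stand against 11.4% of all genes, with 0 rises (4.20% of all genes) and 2 falls (7.20%). Within drug batch 2, in the same fit, 6 of 9 were past it, against 35.2% of all genes, with 4 rises (10.1%) and 2 falls (25.1%). The rises were Eda2r (0.41, SE 0.09), Ccng1 (0.29, SE 0.07), Btg2 (0.27, SE 0.09) and Trp53inp1 (0.26, SE 0.09), and the falls Sesn1 (−0.24, SE 0.08) and Rrm2b (−0.34, SE 0.08), with limma adjusted p up to 0.0367. The changes of the rising genes in batch 1 were 0.19 for Eda2r (SE 0.11), 0.19 for Ccng1 (SE 0.09) and 0.13 for Trp53inp1 (SE 0.11). For Btg2 it was 0.02 (SE 0.11), the mean of samples a and b, which had opposite order. Batch 1 holds 2 samples a group and batch 2 holds 3.

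The difference between batches was itself tested as an interaction and passed for none of the 9 genes, nor for any of the 19938 genes (limma, 0% called). Before adjustment the interaction p was under 0.05 for 0 of the 9 genes and for 1852 of all genes (9.29%). The largest difference among the 9, batch 2 minus batch 1, was that of Btg2 (0.25, SE 0.15, limma adjusted p = 0.623). For 8 of the 9 genes the change in batch 2 was the more positive one, with Plk2 as the exception (−0.15, SE 0.16). These 8 share the same arrays, so they are not independent. The share of all genes with this order was not counted. The median change of all genes was −0.006 in batch 1 and −0.049 in batch 2.

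**Figure D3:**
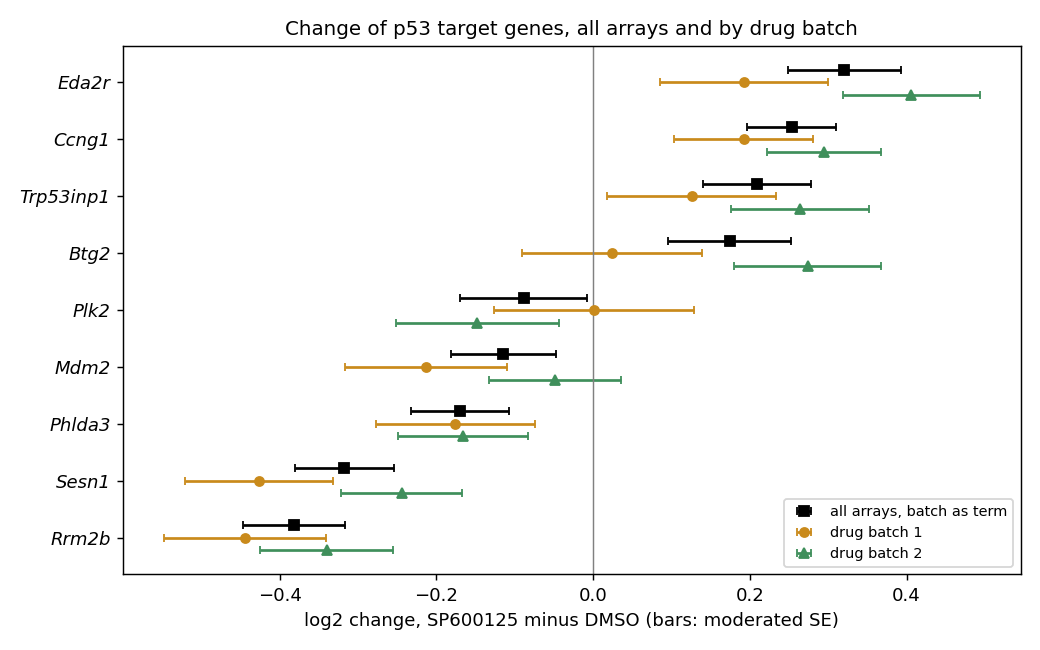
Log2 change, SP600125 minus DMSO (x axis, bars are the moderated SE), of the 9 p53 target genes over all arrays with batch as a term (squares), in drug batch 1 (circles, 2 samples a group) and in drug batch 2 (triangles, 3 samples a group). Rrm2b and Sesn1 lie left of 0 in both batches and Eda2r and Ccng1 right of 0 in both, while Btg2 is near 0 in batch 1.

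The wider p53 pathway was followed through lists of genes that act on p53 and of its other targets. Of 18 measured genes that encode relatives, partners or regulators of p53, 2 rose, 7 fell and 9 did not pass. Their median change was −0.13, and over all genes 17.0% rose and 29.9% fell. The 7 that fell had mean levels from 6.32 (Atr) to 9.01 (Hipk2). In the level intervals that hold them, 41.1% to 66.3% of all genes fell. Both rises were in the p53 family itself: Trp73 rose by 0.35 (SE 0.095, limma adjusted p = 0.00889) and Trp63 by 0.23 (SE 0.07, limma adjusted p = 0.0181). Both are dim on the arrays, and their groups overlapped. Trp73 was at 5.93 ± 0.22 (SP600125) and 5.58 ± 0.14 (DMSO; SD, n = 5 each), and Trp63 at 5.31 ± 0.12 (SP600125) and 5.08 ± 0.09 (DMSO). Among all genes with a mean level from 5 to 6, 27.6% rose. Within drug batch 1, in the fit over all arrays, both passed (limma adjusted p = 0.0407 for Trp73 and 0.0415 for Trp63). Within drug batch 2 neither did (limma adjusted p = 0.122 and 0.228). Trp63 did not pass under any of the other scalings (0.09 to 0.13), nor without SP600125 a (0.18, limma adjusted p = 0.0572). The largest falls were those of Trp53bp1, a DNA break repair factor that binds p53 (−0.35, SE 0.08, limma adjusted p = 0.00473), and Usp7, a deubiquitinase of MDM2 and p53 (−0.31, SE 0.07, limma adjusted p = 0.00358). After cyclic loess neither passed (Trp53bp1 −0.17, limma adjusted p = 0.0761, and Usp7 −0.14, limma adjusted p = 0.0956), nor did they after quantile normalization.

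Over 3 lists of other p53 targets, 37 of 41 genes were measured, and 3 of these rose, 10 fell and 24 missed the threshold (median change −0.07), where 17.0% of all genes rose and 29.9% fell. Of 13 measured targets that drive cell death, 0 rose, 1 fell and 12 missed the threshold, against 46.9% called over all genes, with changes that lay between −0.17 and 0.20. The fall was that of Bid, a BH3-only protein that links death receptors to mitochondria (−0.17, SE 0.06, limma adjusted p = 0.0334). It was lost without SP600125 c, d or e or DMSO c or e, each left out alone (limma adjusted p from 0.0540 to 0.0961), without the batch term (limma adjusted p = 0.0829) and with the replicate block (limma adjusted p = 0.0591), and was −0.28 after median centring. The death receptor Fas had the highest change, 0.20 (SE 0.09), which did not pass (limma adjusted p = 0.0660) but did without DMSO a (0.25, limma adjusted p = 0.0407) or DMSO d (0.24, limma adjusted p = 0.0410).

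Of 12 targets in arrest and DNA repair, 2 rose, 5 fell and 5 did not pass, where 17.0% of all genes rose and 29.9% fell. Plk3, a stress-responsive polo-like kinase, fell by 0.47 on the log2 scale (SE 0.12, limma adjusted p = 0.00734). Its values on SP600125 arrays spread widely, 5.65 ± 0.34, against 6.12 ± 0.12 on DMSO arrays (SD, n = 5 each). Fbxw7, the substrate receptor of a ubiquitin ligase that degrades JUN and cyclin E, fell by 0.41 (SE 0.06, limma adjusted p = 0.000399), and every SP600125 array was below every DMSO array. Averaged over all its probe sets, Fbxw7 changed by −0.17 (limma adjusted p = 0.0342). Gadd45a, a stress sensor in growth arrest and repair, fell by 0.34 (SE 0.06, limma adjusted p = 0.00121), also with no overlap. Its change was −0.21 after quantile normalization and −0.17 after cyclic loess (limma adjusted p = 0.0493). Psrc1, a spindle protein, rose by 0.29 (SE 0.06, limma adjusted p = 0.00264), and by 0.19 after median centring.

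Of 12 measured targets in metabolism and stress, 1 rose, 4 fell and 7 did not pass, where 17.0% of all genes rose and 29.9% fell. Sesn2, a second sestrin and also a target of other stress pathways, rose by 0.33 (SE 0.08, limma adjusted p = 0.00513), opposite to Sesn1, and by 0.51 after cyclic loess. It averaged 7.59 ± 0.17 on SP600125 arrays and 7.26 ± 0.09 on DMSO arrays (SD, n = 5 each), without overlap. Tigar, a phosphatase that lowers glycolytic flux, fell by 0.34 (SE 0.09, limma adjusted p = 0.00705). Its change was −0.10 in drug batch 1 (SE 0.12, limma adjusted p = 0.555) and −0.50 in drug batch 2 (SE 0.09, limma adjusted p = 0.00203). Its interaction with batch did not pass (limma adjusted p = 0.513). Sulf2, an extracellular heparan sulfatase, changed by −0.28 (SE 0.08, limma adjusted p = 0.00814), but did not pass after cyclic loess (−0.12, limma adjusted p = 0.171) or quantile normalization (−0.17, limma adjusted p = 0.0608).

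**Figure D4:**
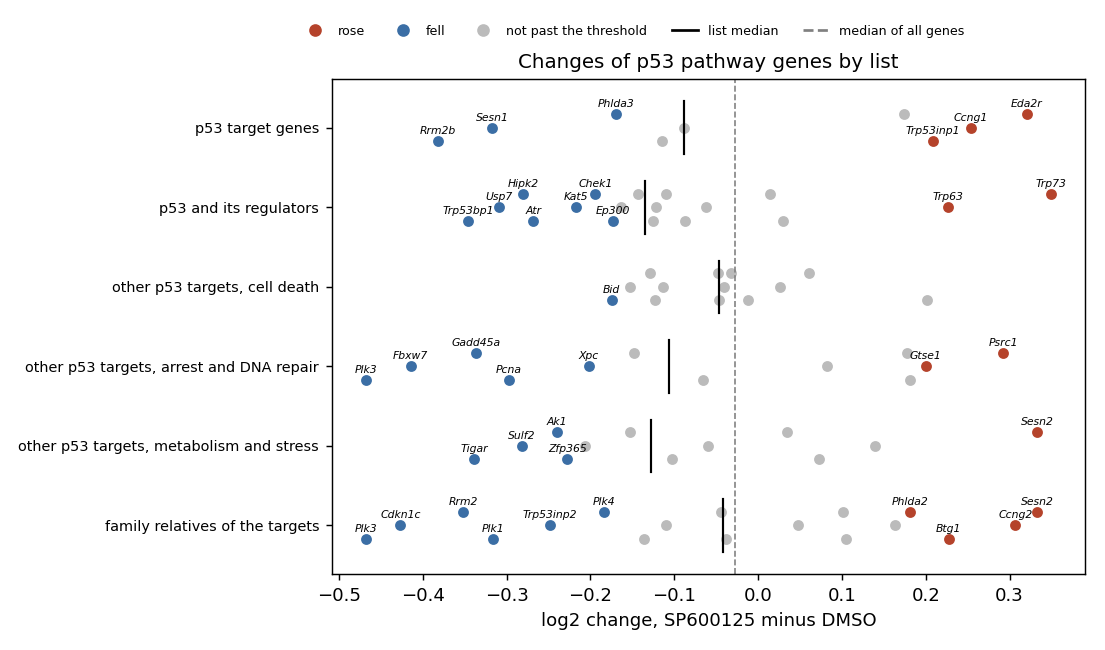
Log2 change, SP600125 minus DMSO (x axis), of each measured gene in 6 lists of the p53 pathway (rows). Red points rose, blue points fell and grey points did not pass the limma threshold, black ticks are list medians, and the dashed line is the median of all genes. Changes in the cell death row lie between −0.17 and 0.20 and 1 of its 13 points is coloured, while the other rows hold coloured points on both sides.

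Of 18 measured family relatives of the targets, 4 rose, 6 fell and 8 did not pass, against 46.9% called over all genes, with a median change of −0.04. Cyclin G2 (Ccng2), known from growth-arrested cells, rose by 0.31 (SE 0.09, limma adjusted p = 0.0123) beside Ccng1. Btg1, the closest relative of Btg2, rose by 0.23 (SE 0.06, limma adjusted p = 0.00713). After median centring neither Ccng2 (0.21, limma adjusted p = 0.0690) nor Btg1 (0.13, limma adjusted p = 0.118) passed. Trp53inp2, a relative of Trp53inp1, fell by 0.25 (SE 0.096, limma adjusted p = 0.0457), and Phlda2, a relative of Phlda3, rose by 0.18 (SE 0.07, limma adjusted p = 0.0372), each opposite to its relative among the targets. Neither passed after quantile normalization (Trp53inp2 −0.13, Phlda2 0.07) or cyclic loess (Trp53inp2 −0.07, Phlda2 0.096), nor Phlda2 after median centring (0.08). With 1 array left out, the limma adjusted p of Trp53inp2 reached 0.125 and that of Phlda2 0.110. Among genes of ribonucleotide reductase, Rrm2, the small subunit of dividing cells, fell beside Rrm2b (−0.35, SE 0.07, limma adjusted p = 0.00115), but not after cyclic loess (−0.16, limma adjusted p = 0.0989). The Cdkn1a relative Cdkn1c, an inhibitor of cyclin-dependent kinases, fell by 0.43 (SE 0.06, limma adjusted p = 0.000202; −0.26 after cyclic loess, −0.28 after quantile normalization), with 8.52 ± 0.08 on SP600125 arrays and 8.94 ± 0.03 on DMSO arrays (SD, n = 5 each).

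Markers of other cells were read beside these results as mean log2 levels of each list. Over all genes, 17.0% rose and 29.9% fell. The list of 10 microglia and macrophage markers had 5 rises and 0 falls, at low levels of 4.86 to 5.01 on SP600125 arrays and 4.64 to 4.87 on DMSO arrays. Among all genes with a mean level from 4 to 5, 36.2% rose and 3.22% fell. The list of 10 fibroblast and endothelial markers had 0 rises and 5 falls, with 7.87 to 7.98 on SP600125 arrays and 8.12 to 8.22 on DMSO arrays. Of 10 astrocyte markers 2 rose and 4 fell, of 10 neural progenitor markers 0 rose and 2 fell, of 9 oligodendrocyte lineage markers 0 rose and 5 fell, and of 10 pluripotency markers 4 rose and 0 fell. Their part in the values of the p53 targets was not tested.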

How the data were processed

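The deposited table holds log2 expression values, 1 per probe set and array, for 35556 probe sets, which the authors made with the oligo package (1.14.0) according to the submitters' processing notes. How background, normalization and summarization were handled is not given in the sources used here, and the log2 scale was read from the values (1.90 to 13.8). No array had been deposited under 2 names, since even the most similar pair had a mean absolute log2 difference of 0.158.

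Names came from the platform annotation: 21789 probe sets carried 1 symbol, 1621 several and 12146 none listed. Each gene took its probe set with the highest mean. limma 3.58.1 (R 4.3.3; lmFit and eBayes, two-sided, 7 residual degrees of freedom) was fitted to all 10 arrays with treatment and drug batch, and a second fit added their interaction, from which the within-batch changes were taken. In simulated data with the spread of the 19938 genes, 67 genes were given a log2 change of 0.25, 67 of 0.5 and 66 of 1. The fit recovered 17.9%, 83.6% and 100% of them, in that order. In the real data 46.9% of genes passed, which makes the adjusted threshold easier to reach. The simulated shares therefore do not give the share of changes missed here.

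The listed genes were chosen with earlier results of these data known. Apart from the p53 targets, up to 3 genes per list were named, those with the largest changes past the threshold. Ccng2, Btg1, Psrc1, Trp63, Fas, Trp53inp2 and Phlda2 were chosen after their values were seen, as were the promoter motifs other than p53's. The sample letters did not pair the arrays: correlations of same-letter deviations from the group means ran from −0.21 to 0.10. Alternatives were 3 scalings, no batch term, a replicate block, a filter on dim genes, the mean of a gene's probe sets, a trended spread, each array or both b arrays left out, and each batch alone. A few listed genes without a usable probe set were not analysed here. Promoter sequences are RefSeq's (GRCm38.p6), and array probes were given no coordinates. The number of arrays limits the precision.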

Additional observations from a re-analysis of the deposited data

Results flagged for a closer look

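In 5 of 56 groups examined (28 named genes in each treatment), 1 array lay far from the other 4 of its group, where chance alone gives about 1 in 20. Among the p53 targets, Rrm2b on SP600125 d (5.82) lay below the other SP600125 arrays, the nearest at 5.97, and Eda2r on DMSO d (7.10) lay below the other DMSO arrays, the nearest at 7.23. Both values leave their gene's groups apart. Trp53bp1 on SP600125 b (8.79) lay above the other SP600125 arrays, the nearest at 8.47. Sulf2 on DMSO b (8.82) lay below the other DMSO arrays, the nearest at 9.05, and so did Btg1 on DMSO b (9.67), the nearest at 9.75.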

How the results depend on the processing

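Over 19 alternatives on all genes (within-batch fits apart), Ccng1, Eda2r and Rrm2b kept their direction and their call in all 19, with changes from 0.15 to 0.34, from 0.22 to 0.49 and from −0.48 to −0.35. Sesn1 kept its call in 18, Trp53inp1 in 12 and Phlda3 in 10. Btg2, not called as deposited, was called in 5, and Mdm2 and Plk2 in 1 each. The sign turned for Mdm2 after cyclic loess (0.035) and for Plk2 after quantile normalization (0.0022), after cyclic loess (0.067) and in drug batch 1 alone (0.00085). The cause of these turns was not tested.

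The count of p53 targets that rose (3) ran from 2 to 4 and the count that fell (3) from 2 to 3 with each array left out in turn. Cyclic loess left 1 fall. Fitted to drug batch 1 by itself, with 2 arrays a group, limma gave 0 rises and 0 falls, and to drug batch 2 by itself 4 and 2. How many of all genes passed in these within-batch fits was not counted, so these counts have no background beside them. Over all genes, rises numbered 3389 as deposited, 1497 after quantile normalization, 1500 after median centring, 1882 after cyclic loess and 1613 among genes of mean level 5 or more, where fewer genes were tested. Falls numbered 5962 as deposited and 3537 after cyclic loess, while median centring gave 8602 and quantile normalization 4494. With each array left out, rises ran from 2392 to 3475 and falls from 5106 to 6355. The interaction with batch was called for 0 of the 9 genes under each scaling and each array left out.

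With the replicate block, 2 p53 targets rose and 2 fell, and over all genes 2954 rose and 5298 fell. Trp53inp1 (limma adjusted p = 0.0518) and Phlda3 (limma adjusted p = 0.0664) lost their calls there, but the letters showed no pairing of the samples, and no other call among the 9 genes changed.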
